A study of Drosophila melanogaster with 24 samples.

Results

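The change of gene expression from 12-16 h to 16-20 h after egg laying was described in control Drosophila melanogaster embryos, as measured by RNA-seq of whole embryos. The groups were taken from the genotype and stage labels, which gave 3 control samples at 12-16 h and 3 at 16-20 h, 6 of the 24 samples of the study. The controls were not wild type: they carried the sima allele 1 over a wild-type chromosome (Sima 1/+), and sima encodes the fly hypoxia-inducible factor alpha subunit. Mutant embryos, used here for 1 comparison, carried the alleles 1 and 20 (Sima 1/20), with 3 samples at each stage, and 3 control samples at 8-12 h are given as levels. Per the labels' protocols, poly(A)-selected, strand-specific libraries were made from 2 µg of total RNA. The embryo table held 10889 gene rows, all but a few on the chromosome arms 2R, 3L and 3R. Of these, 6784 reached 1 FPKM (fragments per kilobase of gene, scaled to the fragments sequenced) in at least 3 of the 18 embryo samples and were tested. Genes on the arms 2L, X, 4 and Y were not analysed here.

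In this window the fly embryo finishes its organs and turns into a larva that can hatch and feed. The epidermis and tracheae secrete the chitin-containing cuticle in layers, first an envelope and epicuticle and then a procuticle of chitin and chitin-binding proteins, after a pulse of the steroid hormone ecdysone in mid-embryogenesis. Muscles assemble their contractile apparatus, neurons form working synapses, and the gut begins to make digestive enzymes.

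The libraries differed in ways that touch the results. FPKM summed over all gene rows was 150507 to 171321 at 12-16 h and 297772 to 329589 at 16-20 h, and the estimated fragments on gene rows were 2.91 to 3.83 M (mega) and 3.89 to 4.66 M. These sums cover the gene rows of 3 arms only, and they also shift with the length of the genes expressed. Another scaling moved the median log2 change of all genes by -0.19 (median centring), -0.30 (quantile normalization) or -0.73 (division by each sample's summed FPKM). The third 12-16 h sample also stood apart: of the 646 genes that were higher at 16-20 h by a log2 change of at least 2, it had the highest of the 3 values at 12-16 h in 500, and their summed FPKM was 15040 there against 7936 and 7230 in replicates 1 and 2. Replicate 2 was the lowest of the 12-16 h samples for 46 of 54 ribosomal protein genes. Values without these samples are given for some of the groups they move. The labels do not say that replicates came from separate egg collections, so the p-values measure only the spread between these samples. In whole embryos, more cells of a type and more RNA per cell cannot be told apart.

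Expression was compared as log2(FPKM + 1), a scale that understates the change of weakly expressed genes, and a gene was called higher or lower where limma's adjusted p was under 0.05. The change reached most of the genes tested. In all, 4597 genes (67.8%) were called: 2580 (38%) were higher at 16-20 h and 2017 (29.7%) were lower. Rises were larger than falls, since 1400 genes (20.6%) rose by a log2 change of at least 1 and 510 (7.52%) fell by that much. At a log2 change of at least 3, 336 genes rose and 85 fell. The median log2 change of all genes tested was 0.05, with quartiles of -0.41 and 0.78. The deposited values had nearly equal median ratios in all embryo samples, so a median near 0 is not a result on its own. The 3 values of 1 stage lay all above or all below those of the other in 5024 genes (74.1%). Every gene named below as having risen or fallen is one of these, so its groups did not overlap. The balance between rises and falls rested on the scaling, with 2190 higher and 2758 lower under median centring, 1903 and 3123 under quantile normalization, and 1350 and 4275 after division by the summed FPKM.

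The summed FPKM became concentrated in fewer genes. The 10 highest genes of each sample held 11.6, 12.4 and 11.7% of its summed FPKM at 12-16 h, and 19.3 to 20.7% at 16-20 h. Genes at 1000 FPKM or more numbered 12 to 16 in the earlier samples and 49 to 58 in the later ones. The highest gene at 12-16 h was Act57B, a muscle actin, at 3304 ± 372 FPKM (SD, n = 3), followed by CG13159, an uncharacterised gene, at 2730 ± 291 FPKM. The rest of the top 10 were the Osiris genes Osi6 and Osi7, the ribosomal protein genes RpL41, RpL15, RpL10Ab and RpL39, the translation elongation factor gene eEF1alpha1, and Nplp2. At 16-20 h the larval cuticle protein genes Lcp65Ag1 and Lcp65Ag2 led with 13441 ± 279 and 11882 ± 375 FPKM, Act57B reached 7995 ± 148 FPKM, and the cuticle protein gene Cpr65Ax1 stood at 5802 ± 327 FPKM. The other 6 were copies of the heat-shock gene Hsp70, from 3601 ± 551 to 4297 ± 862 FPKM. Of the 100 highest genes, 64 were the same at both stages.

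**Figure D1:**
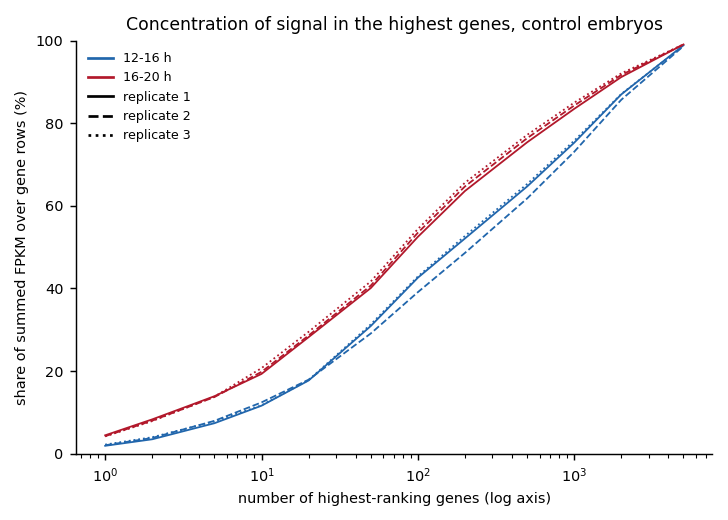
Share of the summed FPKM of each control sample (y axis, percent) held by its highest genes (x axis, number of genes, log axis), with 12-16 h samples in blue, 16-20 h samples in red and a line style for each replicate. The 3 lines of 16-20 h lie above the 3 of 12-16 h up to the 100 highest genes, where they reach 52.5 to 54.4% against 39.1 to 42.9%.

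Markers of embryonic tissues were present. The muscle markers Mlc2, a myosin light chain, and Tm2, a tropomyosin, were at 712 to 841 and 154 to 218 FPKM at 12-16 h and rose by log2 1.51 and 1.72. Neuronal nSyb, a synaptic vesicle fusion protein, rose from 20.9 to 51.1 FPKM on average, while the glial transcription factor repo fell from 6.59 to 4.14. The tracheal FGF receptor btl fell from 1.87 to 0.917 FPKM. Genes of the adult ovary were near 0, with a summed FPKM of 0.51 to 0.89 and 0.84 to 2.29, and the maternal genes bcd and gcl were not called, at 1.14 and 35.7 FPKM at 12-16 h and 2.71 and 31.9 FPKM at 16-20 h. The 12-16 h samples differed in some maternal RNAs. There bcd was at 0.974, 2.24 and 0.191 FPKM and CycB at 15.1, 21.9 and 8.21 FPKM, both highest in replicate 2. By contrast, gcl was highest in replicate 3, at 31.4, 36.8 and 38.8 FPKM. The gene sima itself was at 3.11, 3.20 and 3.23 FPKM at 12-16 h and 4.25, 4.39 and 4.10 FPKM at 16-20 h in controls, a rise of log2 0.33. Gene groups are given below by their called members, and their medians are read against 0.05 and their counts against the 38% higher and 29.7% lower among all genes.

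Cuticle gene families had some of the highest and the lowest medians. Structural cuticle proteins rose and Osiris genes fell. Of 86 chitin-binding cuticle protein genes in the table, 68 were tested, 59 rose and 4 fell, with a median log2 change of 3.18. Their summed FPKM was 30.3 to 85.8 at 8-12 h, 2157 to 4538 at 12-16 h and 46400 to 49410 at 16-20 h. The high end at 12-16 h was replicate 3, which was highest in 53 of the 68 genes, and the median was 3.62 without it. Lcp65Ag1 (FBgn0020638, arm 3L, bases 6134697 to 6135274 of the BDGP6.54 annotation) was at 432, 361 and 933 FPKM at 12-16 h and at 13200, 13376 and 13746 FPKM at 16-20 h. Every late value was more than 10 times every early one, and the log2 change was 4.67 ± 0.31 (SE), with a limma adjusted p of 1.85e-09. Its neighbour Lcp65Ag2 is nearly identical, so how fragments were split between the copies is uncertain, and it had a log2 change of 4.54. The largest log2 changes of the family were 6.40 for Lcp65Ac, from 6.56, 3.79 and 15.5 FPKM to 658, 708 and 766 FPKM, and 6.33 for Cpr47Eg, from 31.0, 22.9 and 94.8 FPKM to 3211, 3380.1 and 3526 FPKM. Cpr66D went the other way, from 19.8, 22.1 and 32.6 FPKM to 6.57, 7.3 and 7.14 FPKM, a log2 change of -1.66.

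The Tweedle genes, a separate family of insect cuticle proteins, split in direction. Of 21 tested, 13 rose and 5 fell, with a median of 1.84, and under quantile normalization 11 were higher and 8 lower. TwdlN was at 35.5, 15.7 and 77.5 FPKM at 12-16 h and at 2772, 3288 and 3453 FPKM at 16-20 h, a log2 change of 6.44 ± 0.37 with a limma adjusted p of 4.11e-10. TwdlP rose from 4.98, 4.72 and 16.0 FPKM to 601, 582 and 604 FPKM. TwdlF was already at 644, 829 and 965 FPKM at 12-16 h and fell to 2.49, 9.49 and 11.1 FPKM, after 0.173 to 1.32 FPKM at 8-12 h. The family thus held genes that peaked at different stages, with no overlap between the groups for any of these 3 genes.

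Osiris genes encode a family found only in insects and are expressed in cells that secrete cuticle. None rose and 17 of the 18 tested fell, with a median log2 change of -3.81, and the exception, Osi2, was not called, at -0.08. Their summed FPKM was 217 to 548 at 8-12 h, 5486 to 6434 at 12-16 h and 80.4 to 89.6 at 16-20 h. Osi6 (FBgn0027527, arm 3R, bases 6234708 to 6237181) was at 2209.6, 1854 and 2187 FPKM at 12-16 h and at 7.43, 0.873 and 5.70 FPKM at 16-20 h. Its log2 change of -8.78 ± 0.48 was the largest fall of all genes (limma adjusted p = 2.44e-10). Osi7 fell from 1691, 1782 and 1784 FPKM to 9.56, 0.888 and 6.57 FPKM, and Osi9 and Osi19 fell by log2 values of 6.52 and 6.49. At 8-12 h Osi6 was at 89.1, 161 and 237 FPKM, so its levels were highest in the middle of the 3 stages.

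**Figure D2:**
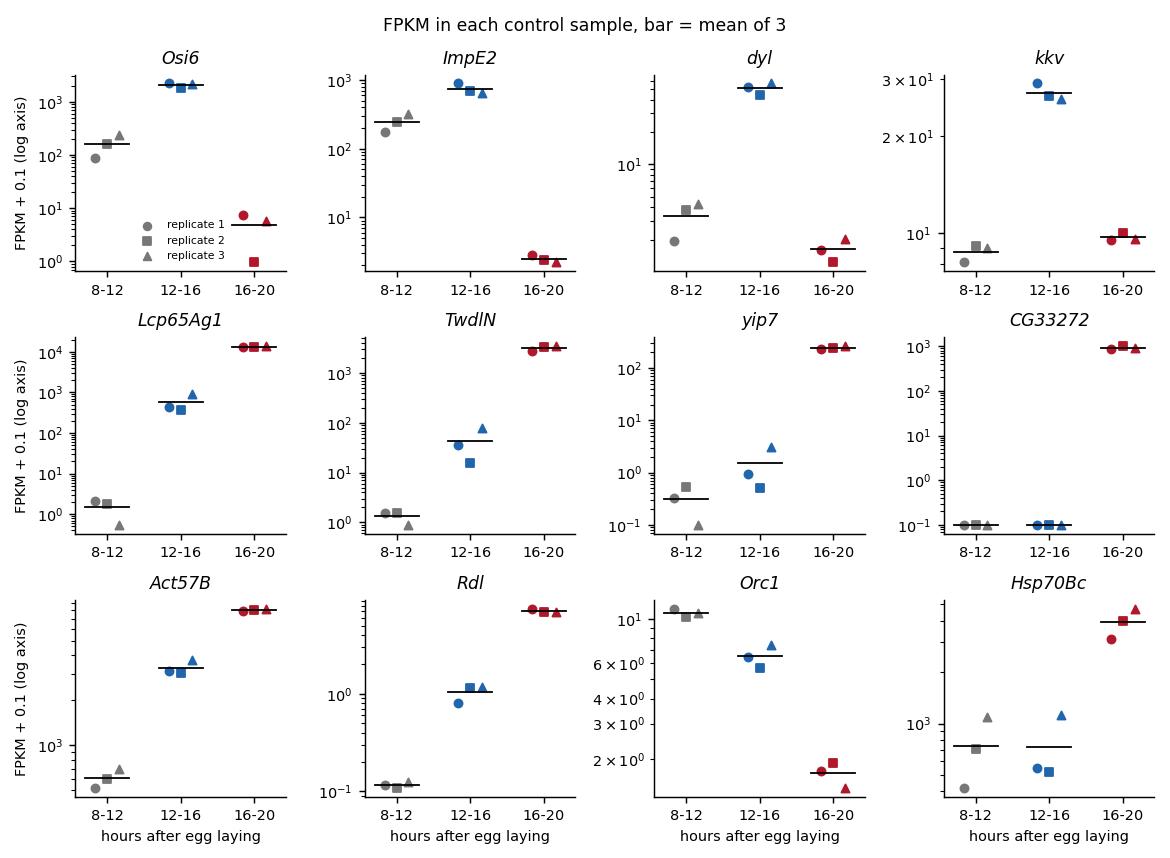
FPKM + 0.1 on a log axis for 12 genes in the 3 control samples of each stage (x axis, hours after egg laying), with a marker shape for each replicate and a bar at the mean. Osi6, ImpE2, dyl and kkv are highest at 12-16 h, and Lcp65Ag1, TwdlN, yip7 and CG33272 have their 3 highest values at 16-20 h.

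ZP-domain proteins, which attach the apical membrane of epidermal cells to the cuticle and shape denticles, fell in 6 of 8 cases, with a median of -3.41 and 2 rises. The denticle gene dyl was at 52.6, 43.6 and 56.4 FPKM at 12-16 h and at 1.52, 1.14 and 1.94 FPKM at 16-20 h, a log2 change of -4.36. The related genes neo and mey fell by log2 values of 4.99 and 4.33. By contrast pio, of the same family, was at 4.10, 3.41 and 3.33 FPKM and then at 16.0, 15.4 and 16.1 FPKM, a log2 change of 1.87.

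Chitin synthesis and modification genes moved both ways, with 13 of 20 higher and 4 lower, and a median of 0.49 that became -0.44 after division by the summed FPKM. The epidermal chitin synthase gene kkv was at 29.0, 26.6 and 26.0 FPKM at 12-16 h and at 9.45, 9.94 and 9.49 FPKM at 16-20 h, with 8.04 to 9.06 FPKM at 8-12 h. Its log2 change was -1.41 ± 0.11 (limma adjusted p = 1.94e-08), and knk, needed to organise chitin, and Gasp, a chitin-binding protein of the tracheal lumen, fell by log2 values of 1.93 and 2.13. The chitin-binding genes obst-J and obst-F and the chitin deacetylase gene Cda9 rose, with log2 changes of 4.04, 3.43 and 2.90. Sclerotization and pigment genes were higher in 8 of 12 cases and lower in 3, with a median of 0.94. After division by the summed FPKM, 4 of the 12 were higher and 4 lower, with a median of 0.09. The gene e (ebony), whose enzyme joins beta-alanine to dopamine for tanning, went from 0.536, 0.324 and 0.851 FPKM to 13.4, 11.8 and 13.9 FPKM. The related pigment enzymes yellow-f2 and yellow-f rose by log2 values of 3.02 and 1.42.

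Several genes of the ecdysone response fell steeply, and others rose. Of 17 tested, 4 rose and 8 fell, with a median of -0.26, but their summed FPKM went from 1657 to 2172 down to 137 to 153, after 493 to 806 at 8-12 h. ImpE2, an ecdysone-inducible gene of imaginal discs (FBgn0001254, arm 3L, bases 3510974 to 3512681), was at 893, 687 and 643 FPKM at 12-16 h and at 2.69, 2.33 and 2.14 FPKM at 16-20 h. This log2 change of -7.76 ± 0.32 had a limma adjusted p of 1.24e-11. ImpL1 and ImpE1, named from the same kind of screen, fell by log2 values of 5.99 and 3.91. Eip74EF, an early ecdysone-response transcription factor, moved the other way, from 0.241, 0.358 and 0.521 FPKM to 6.14, 6.23 and 6.53 FPKM. Ecdysone synthesis genes had 2 rises and 2 falls among 6, and the sterol-transport gene Start1 fell by a log2 value of 1.1.

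The 10 largest rises were all of uncharacterised genes. CG33272 (FBgn0053272, arm 3L, bases 11510323 to 11510589) was listed at 0 in all 3 samples at 12-16 h and at 872, 999.6 and 925 FPKM at 16-20 h. CG14565 went from 0, 0.194 and 0.097 FPKM to 415, 416 and 527 FPKM, a log2 change of 8.69 ± 0.31 (limma adjusted p = 3.38e-12). CG33270, CG33271, CG14569, CG7465, CG33500, CG34267, CG34268 and CG13705 followed, with log2 changes of 7.50 to 8.51. The log2 values of genes at or near 0 depend on the pseudocount of 1. The third 12-16 h sample was the highest of its group in several of them: CG7465 was at 0.0666, 0.0823 and 5.10 FPKM, and CG14569 at 0.583, 0.480 and 3.84 FPKM, before 453 or more FPKM in every 16-20 h sample. Among the 10 largest falls, besides Osi6, Osi7, Osi9, Osi19, ImpE2 and TwdlF, stood the uncharacterised genes CG10591, CG14110, CG14107 and CG7173, with log2 changes of -7.14 to -6.27. CG13159, the second highest gene at 12-16 h, went from 2560.1, 2565 and 3066 FPKM to 113, 149.6 and 184 FPKM, a log2 change of -4.21.

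Some of the 1910 genes called with a log2 change of at least 1 in size lay next to each other. How many runs of neighbours a random gene order would give was not tested. Among tested genes in their order along an arm, 32 runs held at least 5 neighbours that were all called in the same direction with a log2 change of at least 1. The longest was 17 genes higher on arm 3L, bases 6123934 to 6155203, which holds the Lcp65A cuticle protein genes and had a median log2 change of 4.54. A run of 13 higher genes lay at bases 16294711 to 16329534 of the same arm, from CG4962 to CG13058. Tweedle genes made up 9 of 10 neighbours higher on arm 3R, bases 26536350 to 26634714, and 9 neighbours on arm 2R, bases 11337797 to 11357537, from kappaTry to iotaTry, were higher with a median of 3.64. Only 2 of the 32 runs were lower, and both lay in the Osiris cluster of arm 3R, 8 genes at bases 6215832 to 6282495 and 11 at bases 6287733 to 6341424.

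**Figure D3:**
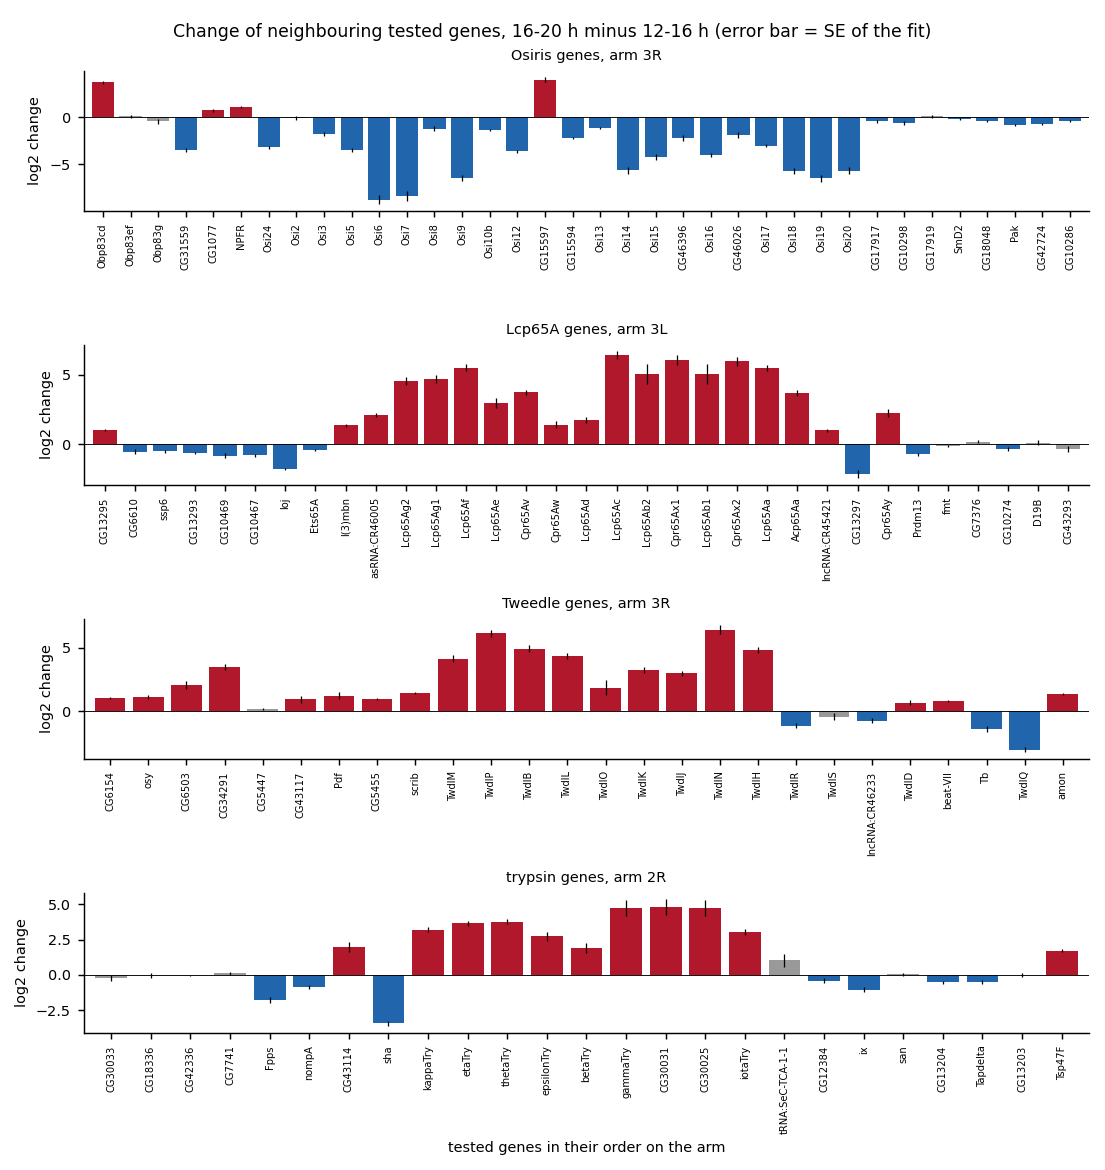
Log2 change from 12-16 h to 16-20 h (y axis, error bar = SE of the fit) of neighbouring tested genes in their order on the arm (x axis), for 4 gene clusters with up to 8 genes on each side; red bars are higher, blue bars lower and grey bars not called. The Osiris genes of arm 3R fall in 2 runs of 8 and 11 neighbours, and the Lcp65A genes of arm 3L rise in a run of 17.

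Digestive genes were among the groups with the highest medians. Of 18 digestive serine protease genes tested, 17 rose and none fell, with a median log2 change of 3.30, and 3.73 without the third 12-16 h sample. Their summed FPKM was 24.1 to 76.9 at 12-16 h and 737 to 965 at 16-20 h. The protease gene yip7 was at 0.836, 0.413 and 2.99 FPKM and then at 232, 238 and 261 FPKM, a log2 change of 6.81 ± 0.28 (limma adjusted p = 1.10e-11). The trypsin gene gammaTry went from 1.68, 0.245 and 5.87 FPKM to 50.1, 88.9 and 87.0 FPKM, and Jon65Aiv, of the Jonah family of midgut proteases, rose by log2 5.70. Jonah and trypsin genes have close copies, which makes single values uncertain. Carbohydrate and lipid digestion genes and lysozymes were higher in 16 of 20 cases and lower in 1, with a median of 2.38, led by the maltase genes Mal-A4 and Mal-A1 with 3.78 and 3.73 and the lysozyme gene LysD with 3.61. Of 4 tested genes in the peritrophin and mucin list, 3 rose: the salivary glue genes Sgs8 and Sgs7 by log2 3.66 and 2.34, and the mucin gene Muc96D by 1.09. The mucin gene Muc91C fell by a log2 value of 1.35. The regulators of gut development did the opposite, with no rise and 5 falls among 9. The endodermal transcription factor GATAe went from 12.9, 10.1 and 12.1 FPKM to 5.62, 5.47 and 5.91 FPKM.

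Muscle contractile genes rose in 17 of 22 cases and none fell, with a median of 1.24. Under quantile normalization 7 were higher and 4 lower, and after division by the summed FPKM 12 and 7. Act57B was at 3142, 3041 and 3729 FPKM at 12-16 h and at 7852, 7984 and 8148 FPKM at 16-20 h, a log2 change of 1.28 ± 0.13 that became -0.56 under quantile normalization. The Z-disc gene Zasp66 went from 2.68, 3.30 and 4.79 FPKM to 78.9, 84.5 and 91.6 FPKM, and Obsc, which encodes obscurin, rose by log2 2.79. Mf, which encodes myofilin, rose by log2 2.74. Genes of myoblast specification and fusion had 3 rises and 7 falls among 17, with a median of -0.19. The gene lmd, a Gli-type transcription factor of fusion-competent myoblasts, went from 2.46, 2.29 and 2.04 FPKM to 0.105, 0.0414 and 0.133 FPKM, after 18.1 to 19.7 FPKM at 8-12 h. The FGF-pathway adaptor stumps and the RNA-binding protein gene how fell by log2 values of 1.12 and 0.83.

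In the nervous system lists, genes of signalling rose while genes of neurogenesis and axon growth fell. Transmitter synthesis and release genes were higher in 23 of 25 cases and lower in none, with a median of 0.82, and after division by the summed FPKM 8 were higher and 3 lower. Gad1, which makes GABA, was at 2.85, 3.56 and 3.77 FPKM and then at 19.1, 20.5 and 19.4 FPKM, a log2 change of 2.24 ± 0.11 (limma adjusted p = 7.06e-11). Tdc1, a tyrosine decarboxylase, and Vmat, the vesicular monoamine transporter, rose by log2 values of 2.32 and 1.67. Ion channel and receptor genes were higher in 17 of 21 cases and lower in 2. The GABA receptor gene Rdl went from 0.701, 1.05 and 1.09 FPKM to 7.3, 6.87 and 6.79 FPKM, with 0.00893 to 0.0238 FPKM at 8-12 h. Ih, a hyperpolarisation-activated channel, and the muscarinic receptor mAChR-A rose by log2 values of 1.98 and 1.83. Neuropeptide and peptide-processing genes rose in 23 of 27 cases and fell in 2, with a median of 1.19. The insulin-like peptide gene Ilp2 went from 0.108, 0.267 and 0.40 FPKM to 6.96, 7.96 and 7.03 FPKM, and Akh, the adipokinetic hormone, and Ms, myosuppressin, rose by log2 values of 2.32 and 2.26. The synaptic gene brp, a component of the active zone, rose by log2 0.77, which became -0.05 after division by the summed FPKM.

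Neuroblast and neurogenesis factors fell in 14 of 18 cases and rose in 1, with a median of -0.61. The Notch target gene E(spl)m7-HLH was at 104 to 154 FPKM at 8-12 h, at 32.0, 28.6 and 34.1 FPKM at 12-16 h and at 4.91, 4.05 and 6.07 FPKM at 16-20 h. The neuronal differentiation factor nerfin-1 fell by a log2 value of 2.26, and E(spl)m8-HLH by 1.71. Axon guidance genes fell in 12 of 20 cases and rose in 1. The netrin receptor gene fra went from 10.4, 9.61 and 8.29 FPKM to 4.01, 3.25 and 3.38 FPKM, and trn, a leucine-rich repeat cell-surface protein, and robo1, a Slit receptor, fell by log2 values of 1.03 and 0.91. Glial genes had 4 rises and 3 falls among 9, and their median of 0.05 turned negative under each of the 3 other scalings. CG6126, in the glial list, rose by log2 3.64, the trehalose transporter gene Tret1-1 by 1.58 and the citrate transporter gene Indy by 1.14. The lowest change in the list was -0.94, and the glial transcription factor repo, given above, fell.

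Sense-organ genes were mostly too low to test. Of 126 chemosensory receptor genes in the table, 11 were tested, with 3 rises and 4 falls, and of 20 mechanosensory and pickpocket channel genes 7 were tested, with 2 rises and 2 falls. The medians of both lists, 0.07 and 0.05, turned negative under the 3 other scalings. The gustatory receptor genes Gr59e and Gr59f fell by log2 values of 1.89 and 1.55, the co-receptor gene Ir76b rose by 1.02, and the nociceptive channel gene ppk26 rose by 1.92 while nompA, which links mechanosensory dendrites to the cuticle, fell by a log2 value of 0.87. Odorant-binding protein genes rose in 13 of 20 cases and fell in 4, with a median of 1.77. Obp56d went from 1.94, 1.00 and 4.79 FPKM to 98.0, 109.8 and 105 FPKM, and Obp44a and Obp83cd rose by log2 values of 4.05 and 3.71. Among 12 septate junction genes, 5 rose and 7 fell: Ssk, of the gut's smooth junctions, rose by log2 1.63 and the polarity gene scrib by 1.45, while Nrx-IV, of epidermal and glial junctions, fell by a log2 value of 0.94. Tracheal regulators and branching genes fell in 9 of 13 cases and rose in 1. The transcription factor genes rib and vvl fell by log2 values of 1.18 and 1.13, and Mipp1 rose by log2 1.35, from 12.8, 13.2 and 13.6 FPKM to 35.8, 35.6 and 34.5 FPKM.

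Fat body and blood genes moved in both directions. Of 7 haemocyte genes, 2 rose and 2 fell. PPO1, the prophenoloxidase of crystal cells, went from 101, 96.9 and 102 FPKM to 11.5, 6.94 and 7.02 FPKM, a log2 change of -3.45 ± 0.14 (limma adjusted p = 1.05e-11). The plasmatocyte genes Hml and eater rose from values of at most 0.260 FPKM to 2.15 FPKM or more, with log2 changes of 1.75 and 1.62, and Pxn, a peroxidase of the same cells, fell by a log2 value of 0.66. Fat body and haemolymph genes had 2 rises among 6, and their median of 0.14 turned negative under the 3 other scalings. Swim, in that list, went from 1.92, 1.77 and 2.54 FPKM to 29.3, 31.7 and 32.3 FPKM. Basement membrane and integrin genes had 4 rises and 4 falls among 10. The laminin gene LanA fell by a log2 value of 1.27, and the matrix protease gene Mmp1 and the collagen-binding gene SPARC rose by 2.22 and 1.77.

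Genes of immunity, detoxification and ion transport rose in larger shares than all genes. Antimicrobial peptide genes were higher in 19 of 25 cases and lower in 1, with a median of 1.35. BomS3 and BomBc1, of the Bomanin family, were listed at 0 in 2 of the 3 samples at 12-16 h and stood at 34.3 to 42.8 and 19.6 to 27.9 FPKM at 16-20 h, and Dso1, a Toll-responsive Daisho peptide, rose by log2 4.67. The drosomycin-like gene Drsl5 was the exception, at 135, 77.1 and 100.2 FPKM and then at 6.31, 10 and 8.90 FPKM. Of 7 peptidoglycan recognition genes, 4 rose and 2 fell. PGRP-LB, an amidase that degrades peptidoglycan, rose by log2 2.33, and PGRP-SD fell by a log2 value of 1.40. Cytochrome P450 genes rose in 36 of 46 cases and fell in 4, glutathione S-transferase genes in 25 and 2 of 31, and UDP-glycosyltransferase genes in 16 and 5 of 22. Cyp4c3 went from 0.652, 0.537 and 0.685 FPKM to 49.3, 48.8 and 54.0 FPKM, a log2 change of 4.99 ± 0.13 (limma adjusted p = 3.34e-13). Cyp4p1 and Cyp12a4 rose by log2 values of 2.85 and 2.75, GstD8 and GstE9 by 3.01 and 2.73, and Ugt35E2 by 3.42. Ugt35D1 fell, from 72.7, 76.1 and 61.7 FPKM to 6.0, 5.54 and 4.49 FPKM. Subunits of the V-ATPase proton pump were higher in 12 of 15 cases and lower in 1, with Vha13, Vha100-4 and Vha44 at log2 changes of 2.07, 1.91 and 1.80.

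DNA replication genes fell in 29 of 33 cases and none rose, with a median of -0.69. Their summed FPKM was 630 to 672 at 8-12 h, 274 to 287 at 12-16 h and 152 to 163 at 16-20 h. The origin recognition gene Orc1 went from 6.34, 5.59 and 7.34 FPKM to 1.65, 1.80 and 1.34 FPKM, a log2 change of -1.51 ± 0.11 (limma adjusted p = 5.81e-09). The ribonucleotide reductase subunit RnrS, the helicase subunit Mcm5 and the sliding clamp gene PCNA fell by log2 values of 1.5, 1.24 and 1.1. Mitotic regulators had 13 falls and 1 rise among 39, a share of falls near that of all genes, and 9 falls and 5 rises without the second 12-16 h sample. The mitotic phosphatase gene stg was at 106 to 121 FPKM at 8-12 h, at 22.3, 17.4 and 19.2 FPKM at 12-16 h and at 9.97, 9.35 and 8.91 FPKM at 16-20 h. The cyclin-dependent kinase inhibitor gene dap, which holds cells out of the cycle, fell as well, by a log2 value of 1.96, and the checkpoint gene mad2 by 0.84. Of the 4 histone genes tested, 1 fell, the variant gene His2Av, by a log2 value of 0.61.

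Patterning and chromatin genes also leaned downwards. Segment polarity and dorsoventral genes fell in 13 of 19 cases and rose in 1, with ptc, the Hedgehog receptor, and the transcription factor gsb at log2 changes of -1.31 and -0.97. Hox genes and cofactors fell in 6 of 7 cases, with abd-A from 8.58, 9.17 and 8.30 FPKM to 6.94, 6.59 and 6.74 FPKM. Of these 7 genes, 4 fell without the second 12-16 h sample and 4 without the third. Gap and pair-rule genes had 1 rise and 2 falls among 9, and the rise was the transcriptional repressor gene hry (hairy), at 13.2, 12.5 and 12.2 FPKM and then at 44.9, 43.2 and 46.8 FPKM. Chromatin regulators fell in 17 of 31 cases and none rose, with the insulator gene su(Hw) and the Polycomb recruiter phol each at a log2 change of -1.05. Without the second 12-16 h sample, 11 of the 31 fell. Germ plasm and maternal genes had 3 rises and 5 falls among 17, and their median of 0.39 became -0.19 after division by the summed FPKM. Without the second 12-16 h sample, 6 of the 17 rose and 4 fell. The protease genes ea and snk, whose maternal products pattern the dorsoventral axis, rose by log2 values of 2.07 and 1.55. Of 15 apoptosis genes, 6 rose and 5 fell, and the median of 0.04 turned negative under the 3 other scalings. The inducers skl, rpr, grim and hid fell by log2 values of 2.07, 1.56, 1.42 and 1.12, and the caspase gene Damm rose by log2 2.12. Of 7 testis and seminal fluid genes tested, 1 rose.

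Metabolic genes rose across pathways. Of 9 glycolysis genes in the table, 8 rose and none fell, with a median of 1.86, and their summed FPKM was 239 to 338 and then 758 to 871. Hex-C, a hexokinase, went from 0.645, 0.465 and 1.33 FPKM to 45.9, 46.7 and 45.2 FPKM, a log2 change of 4.72 ± 0.17 (limma adjusted p = 3.64e-12). The pyruvate kinase gene PyK rose by log2 2.61 and the triose phosphate isomerase gene Tpi by 2.00. The exception was Ldh, lactate dehydrogenase, at 53.8, 33.2 and 47.3 FPKM and then at 48.3, 54.0 and 55.5 FPKM, where the groups overlapped and the log2 change of 0.25 became -0.27 under quantile normalization and -0.68 after division by the summed FPKM. TCA cycle genes rose in 12 of 13 cases, with Mdh2 and ScsbetaA at 2.04 and 1.86. Of the 13, 8 were higher and 1 lower under quantile normalization, and 6 and 3 after division by the summed FPKM. Nuclear oxidative phosphorylation genes rose in 37 of 42 cases and none fell, with a median of 1.08, but 15 were higher and 3 lower under quantile normalization, and 15 and 6 after division by the summed FPKM. The complex III subunit UQCR-C2 went from 43.8, 16.9 and 46.4 FPKM to 98.4, 124 and 122 FPKM, and the ATP synthase subunit ATPsynD from 104, 54.6 and 111 FPKM to 251, 273 and 287 FPKM. In both genes replicate 2 was the lowest at 12-16 h. Lipid genes rose in 10 of 16 cases and fell in 1, with a median of 0.63 that became -0.20 after division by the summed FPKM, and AcCoAS, which makes acetyl-CoA, and the desaturase gene Desat1 stood at 2.19 and 2.07. Glycogen and trehalose genes rose in 6 of 7 cases and fell in 1, and 3 were higher and 2 lower after division by the summed FPKM. Treh, which splits trehalose, went from 2.75, 3.04 and 3.15 FPKM to 30.6, 30.4 and 29.4 FPKM, and UGP rose by log2 1.84.

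Cytosolic ribosomal protein genes rose in 45 of 54 cases and none fell, with a median of 0.65, but 2 were higher and 29 lower under quantile normalization (median -0.32), and 1 and 24 after division by the summed FPKM (median -0.27). The median was 0.43 without the second 12-16 h sample. RpL8 was at 485, 137 and 438 FPKM and then at 684, 879.6 and 915 FPKM. RpL41 was at 2635, 2658 and 2599.9 FPKM and then at 2516, 2668 and 2669 FPKM, so the groups overlapped and it was not called. Mitochondrial ribosomal protein genes rose in 25 of 44 cases and none fell, with a median of 0.30, and 4 were higher and 16 lower under quantile normalization, and 0 and 38 after division by the summed FPKM. The gene mRpL46 rose by log2 0.84, which became -0.09 under the last of these scalings. Ribosome biogenesis genes rose in 9 of 17 cases, eIF6 by log2 1.15, and their median of 0.30 became -0.59 after division by the summed FPKM. Proteasome subunit genes had 8 rises and 3 falls among 25, and their median of 0.09 turned negative under the 3 other scalings. Without the second 12-16 h sample, 2 of the 25 rose and 4 fell. Heat-shock protein and chaperone genes rose in 17 of 20 cases and none fell, with a median of 1.11, and 8 were higher and 3 lower under quantile normalization. Replicate 1 was the lowest of the 16-20 h samples in 20 of the 20 genes, with a summed FPKM of 24850 against 31170 and 36180, and at 12-16 h replicate 3 stood at 9820 against 6413 and 6386. Hsp70Bc was at 552, 519.8 and 1121 FPKM at 12-16 h and at 3119.6, 3978 and 4695 FPKM at 16-20 h, with 421 to 1090 FPKM at 8-12 h, and its nearly identical copies share fragments. Hsp68 rose by log2 2.92, and the cytosolic chaperone gene Hsp83 by 0.97.

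**Figure D4:**
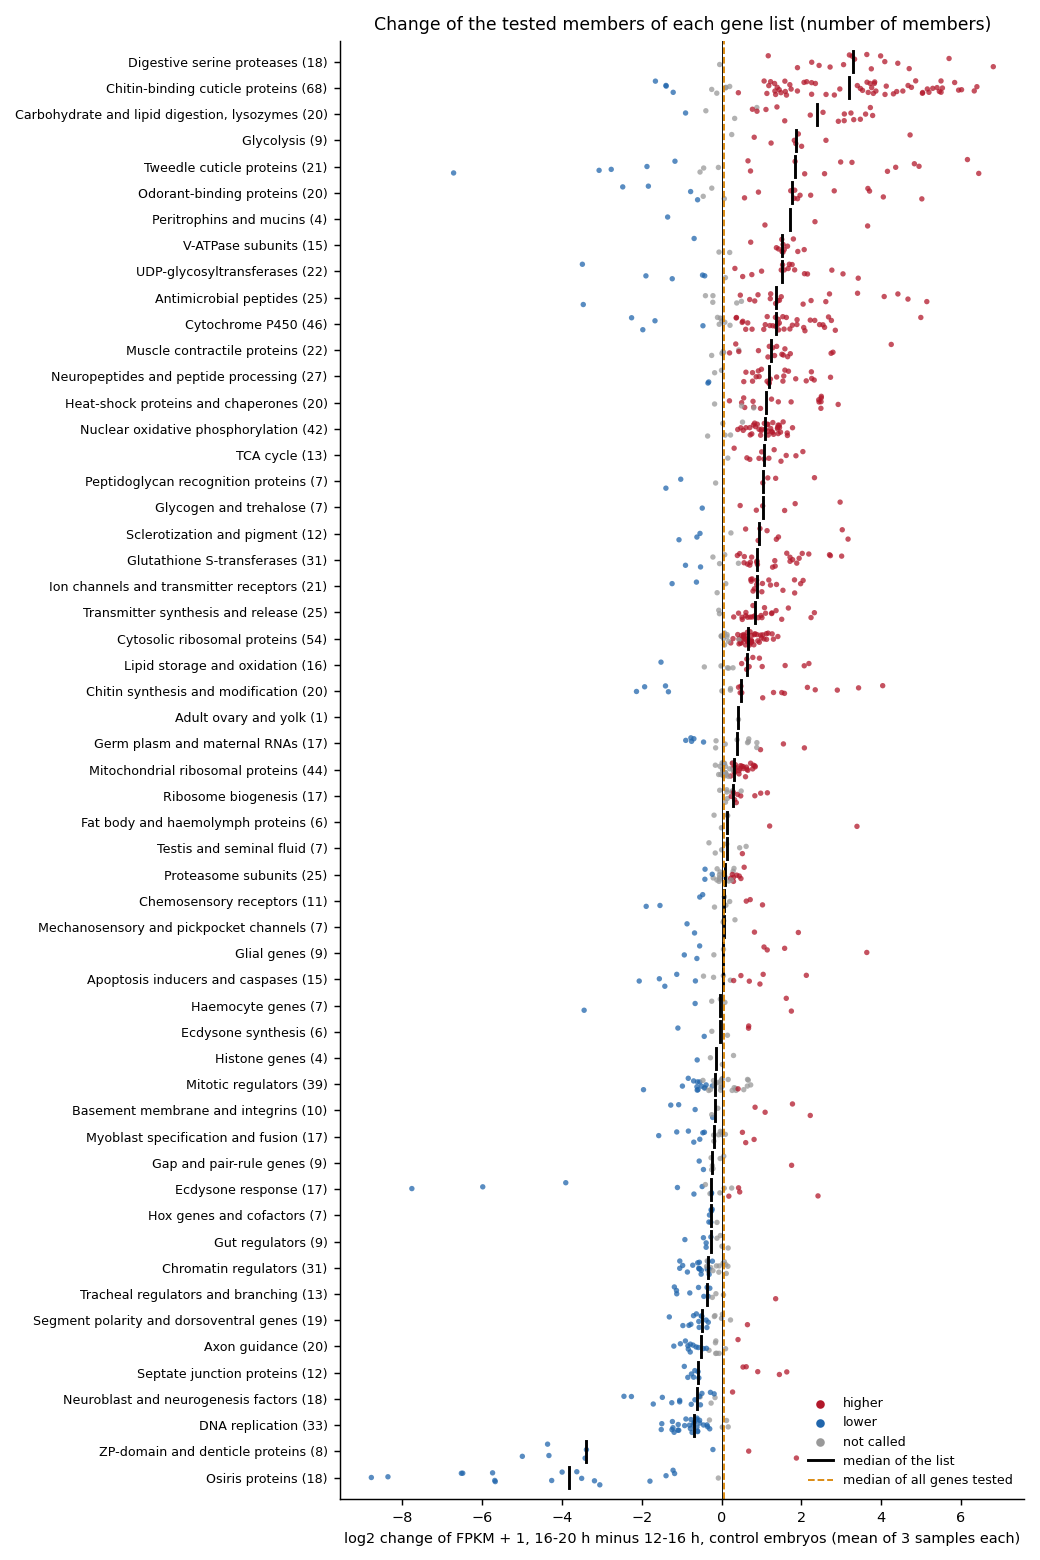
Log2 change from 12-16 h to 16-20 h in control embryos (x axis) for each tested member (point) of the 55 gene lists (y axis, number of members in brackets), with higher members in red, lower in blue and members not called in grey, a black bar at the list's median and a dashed line at the median of all genes tested, 0.05. Digestive serine proteases and chitin-binding cuticle proteins lie at the top with medians of 3.30 and 3.18, and Osiris proteins at the bottom with -3.81.

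To determine where the controls differed from mutants over the same window, the difference between the control and the mutant change was tested in the same limma model. It was called for 730 genes (10.8%), of which 444 rose in controls, 237 fell and 49 were not called there. The control change was the larger in size in 422 of the 444, in 230 of the 237 and in 0 of the 49, groups that were themselves formed by the control call. The control change minus the mutant one was positive in 439 genes and negative in 291, a balance that turned to 387 and 479 under quantile normalization and to 288 and 684 after division by the summed FPKM. Among the cuticle protein genes 29 of 68 differed, and the median of the list was 3.18 in controls and 2.30 in mutants, while that of the Osiris genes was -3.81 and -3.04. CG14565 had the log2 changes 8.69 in controls and 5.27 in mutants, a difference of 3.41, and CG13159 fell by 4.21 in controls and 2.01 in mutants. The gene kkv differed by -0.72 and yip7 by 2.67. Ribosomal protein genes differed in 1 of 54 cases, DNA replication genes in 0 of 33 and V-ATPase genes in 0 of 15. Some maternal genes had higher means in mutants at both stages. At 12-16 h bcd was at 23.1 ± 12.2 FPKM (SD, n = 3) in mutants against 1.14 ± 1.04 FPKM in controls. CycB was at 173 ± 75.5 FPKM against 15.0, while gcl was at 38.5 against 35.7 and tud at 21.3 against 29.8. At 16-20 h bcd was at 13.99 ± 4.08 FPKM in mutants against 2.71 ± 0.942 FPKM in controls. CycB was then at 97.9 ± 22.1 FPKM against 23.2, gcl at 39.6 against 31.9 and tud at 17.7 against 17.2. The difference between the genotypes within a stage was not tested. Whether the mutant samples matched the controls in stage or make-up was not tested. The count of 730 was less stable than that of the control change. It was 390 with a pseudocount of 0.1 and 452 in a fit of the 12 samples compared. Without single samples it fell to 396 (control 12-16 h replicate 1), 442 (control 16-20 h replicate 2), 442 (control 16-20 h replicate 3), 463 (mutant 12-16 h replicate 2) and 403 (mutant 16-20 h replicate 3).

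**Figure D5:**
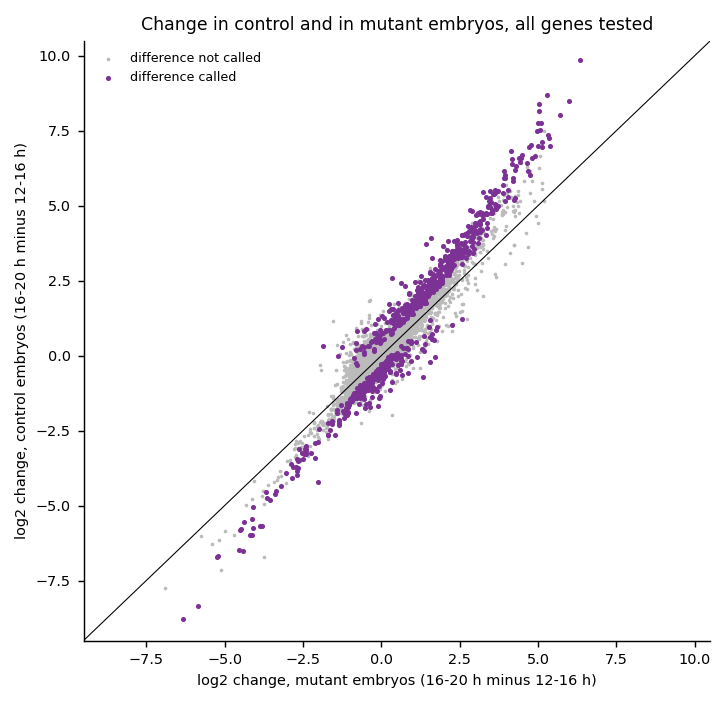
Log2 change from 12-16 h to 16-20 h in control embryos (y axis) against that in mutant embryos (x axis) for the 6784 genes tested, with the diagonal of equal change; purple points are the 730 genes whose change differs between the genotypes, and grey points the rest. Most purple points with a rise lie above the diagonal and most with a fall lie below it, with the larger change in controls in 422 of 444 and 230 of 237 genes, and in 0 of the 49 not called in controls.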

How the data were processed

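Whole-embryo RNA was purified on Qiagen columns and sequenced on the Illumina platform, per the labels' protocols. For the 18 embryo samples the authors deposited FPKM values, 1 column for each sample. The submitters' processing notes name featureCounts and the build BDGP6 among others, with no role for each. In the larval table of the study, the median ratio of each sample to the geometric mean over features was equal in all 6 samples, and in the embryo table it was nearly so, at log2 values of 1.77e-04 to 0.0551, while the summed FPKM was not. The exact scaling of the deposited FPKM is not given in the sources used here. Low FPKM values lay within 0.05 of whole multiples of 1 fragment in 90.7% of 13846 cases, with exon lengths of Ensembl release 115, which gave the estimated fragments.

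Of 14336 complete rows, the 10889 FlyBase gene rows were used, and 10865 matched that annotation. The incomplete last row was dropped, and 3447 rows of other kinds were left out. The filter was 1 FPKM in at least 3 samples. Values were tested as log2(FPKM + 1) in 1 linear model of the 6 groups of the 18 samples, with limma 3.58.1 (R 4.3.3) and its mean-variance trend, with Benjamini-Hochberg adjustment. In simulated data the model called 80 of 100 genes changed by log2 1 in size, 95 of 100 changed by log2 2 and 12 of 5907 unchanged genes. The simulation used 1 expression profile for all groups apart from the changed genes, and the same spread for all genes. That spread was set beforehand and not fitted to these replicates, and far fewer genes were changed than were called in the data. The simulation therefore does not cover the shift of the summed FPKM between the stages, and its rates do not carry over to these samples. Replicate pairs had Pearson correlations of 0.973 to 0.990 across genes, and none were identical. Tables and figures were made with Python 3.11.15.

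The comparison, the gene lists and the rules were chosen with earlier results of these data known. Named genes are the 10 largest rises and falls among called genes without overlap, the 3 largest changes of that kind in each of the 55 lists, and the 10 highest genes at each stage. Of 173 genes followed through the alternatives, 151 came from this rule, and the other 22, mostly tissue markers, were chosen after their values were seen. Alternatives were the pseudocount, the filter, quantile normalization, median centring, the variance model, voom on estimated fragments, the samples in the fit, a replicate block, the fold threshold, leaving out each sample and, chosen after seeing the data, division by the summed FPKM. Promoter motifs were not analysed here.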

Additional observations from a re-analysis of the deposited data

Results flagged for a closer look

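The change from 12-16 h to 16-20 h differed between control and mutant embryos in 730 of 6784 genes (10.8%) by limma's test of the difference. Of the 173 genes followed here, 63 are among them. A rule that mostly takes the largest control changes named 151 of the 173. That choice favours a difference with the sign of the control change, so the share of 63 is no result about the genotypes. The values below are the control log2 change minus the mutant one, each from 3 samples in each of 4 groups. Each of the genes with a positive difference rose in controls, and each with a negative one fell, except RpL39 (-0.53), which was not called in controls. The same choice of genes favoured this match of signs, so it is not evidence about the genotypes.

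Among the genes with the largest rises the differences were 3.51 for CG33272, 3.41 for CG14565, 3.37 for CG14569, 3.13 for CG7465, 2.75 for CG34268, 2.69 for CG34267, 2.52 for CG33270, 2.45 for CG33271 and 2.30 for CG33500. Cuticle protein genes gave 2.22 (Lcp65Ac), 2.06 (Cpr65Ax1), 2.03 (Cpr47Eg), 1.28 (Lcp65Ag2), 2.23 (TwdlP) and 2.03 (TwdlN). Genes of chitin and tanning gave 1.44 (obst-J), 0.90 (Cda9), 0.92 (e) and 0.85 (yellow-f2). Gut genes gave 2.67 (yip7) and 0.86 (Mal-A4), and genes of sugar metabolism gave 1.41 (Hex-C), 0.72 (Treh) and 0.66 (PyK). The muscle genes Zasp66 and Obsc gave 0.87 and 0.62. Genes in the nervous system and sense-organ lists gave 0.86 (Tdc1), 0.51 (Gad1), 0.53 (Rdl), 0.49 (Ih), 0.96 (CG6126), 1.15 (Obp83cd) and 0.65 (ppk26). Fat body, blood, matrix and immune genes gave 0.95 (Swim), 0.52 (Hml), 0.46 (Mmp1) and 0.68 (PGRP-LB). The other positive values were 1.27 (Cyp4c3), 0.88 (Ugt35E2), 0.90 (ea), 0.50 (scrib), 0.49 (Eip74EF) and 0.48 (Damm).

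Among genes that fell, the differences were -2.51 for Osi7, -2.45 for Osi6, -2.20 for CG13159, -2.10 for Osi9, -1.95 for Osi19, -1.49 for CG14107 and -1.47 for CG14110. Cuticle and ecdysone genes gave -1.17 (dyl), -0.72 (kkv) and -0.87 (ImpE1). The tracheal factors rib and vvl gave -1.06 and -0.56, and nerfin-1, fra and Gr59e gave -0.55, -0.47 and -0.76. The remaining values were -0.86 (Ugt35D1), -0.77 (phol), -0.75 (PPO1) and -0.65 (LanA). What the difference between the genotypes comes from was not tested.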

How the results depend on the processing

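The count of genes called, 4597, was 4525 with a replicate block and 4291 to 4481 when single samples were left out (higher 2466 to 2525, lower 1825 to 1956). It fell to 1910 with a log2 change of at least 1 as a further condition. Genes higher fell to 1350 after division by the summed FPKM, and genes lower rose to 3123 under quantile normalization and to 4275 after that division. The genotype difference, 730 genes, was 390 with a pseudocount of 0.1, 452 in a fit of only the samples compared, 239 with a log2 difference of at least 1, 548 with a replicate block, 866 under quantile normalization (387 positive, 479 negative, against 439 and 291), 972 after division by the summed FPKM (288 and 684) and 396 to 916 without single samples. The deviations of same-numbered samples of the stages had correlations of 0.00462, -0.0373 and 0.161, and those of samples with different numbers -0.198 to 0.199. With 3 samples in each stage, whether the replicate numbers mark a pairing cannot be told from these values.

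Of 2758 comparisons of 173 genes with an alternative, 2711 kept direction and call and 18 changed sign. Under quantile normalization the log2 change became -0.56 for Act57B, -0.27 for Ldh, -0.98 for RpL15, -0.86 for RpL10Ab and -0.44 for Nplp2. After division by the summed FPKM it became -0.68 for Ldh, -0.0866 for mRpL46, -0.90 for RpL15, -0.67 for RpL10Ab, -0.18 for Nplp2 and -0.0487 for brp. RpL15 became -0.14 under median centring. Without single control samples, 4 genes that were called in none of these fits crossed 0: RpL41 ranged from -0.0223 to 0.0204, eEF1alpha1 from -0.0784 to 0.0601, RpL39 from -0.0832 to 0.0532 and RpL15 from -0.0198 to 0.142. The cause was not tested. The medians of 13 of the 55 lists changed sign under at least 1 of the 3 scalings. Depth was estimated, not given, and intervals on counts cannot be had from FPKM.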

Other observations

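The shortest genes were higher more often than the rest. Of the protein-coding genes tested, the fifth with the shortest exonic length (175 to 1013 bases) was higher at 16-20 h in 52.8% of cases and lower in 19%, while the fifth with the longest (3735 to 58996 bases) was higher in 34.2% and lower in 36.4%. By gene span, introns included, the fifth with the longest genes did not have the lowest share: it was higher in 43.4% and lower in 33.6%, against 50.2% and 19.7% in the fifth with the shortest and 32 to 37.2% higher in the 3 between. The median exonic length was 1456 bases for genes that rose by a log2 change of at least 1, 1894 bases for those that fell by as much and 1857 bases for genes not called. The families with the largest rises, cuticle proteins and digestive proteases, are short genes, and their part in this pattern was not tested.

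Small nuclear and nucleolar RNA genes, which carry no poly(A) tail in their mature form, were seldom called in these poly(A)-selected libraries. Of 115 small nucleolar RNA genes tested, 3.48% were higher and 5.22% lower, and of 11 small nuclear RNA genes none were called by limma. Of 241 other noncoding RNA genes, 21.2% were higher and 24.1% lower, against 39.6% and 30.6% of 6328 protein-coding genes. The chromosome arms were alike, with 20.6 to 20.8% of tested genes higher by a log2 change of at least 1 on 2R, 3L and 3R.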
